A study of Schima superba and Cryptocarya concinna with 24 samples.

Results

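Young and mature leaves of Cryptocarya concinna, an evergreen tree of the laurel family, were compared in seedlings kept at 30% of full sunlight. The seedlings came from a subtropical evergreen forest and were raised either in the open, at 100% of full sunlight, or beneath 2 layers of black nylon net. Each group had 3 libraries of leaf RNA: young leaves in low light, mature leaves in low light, and the same leaf ages in full sunlight, which enter below only where the age difference was compared between lights. No genotype was labelled. The labels do not say that replicates are separate plants, so the p-values speak only of the spread among these libraries. Levels are FPKM, the fragments mapped to a transcript scaled to its length and to the library's mapped fragments, of assembled transcripts called unigenes. Of 60814 unigenes, 41118 (67.6%) reached 1 FPKM or more in 3 or more of the 6 low light libraries and are the ones described; the other 19696 did not and were not tested. Unigenes are named by the best protein database hit in the deposited table, so a name is that of the closest described protein, often from another species.

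A leaf begins as a sink of dividing and expanding cells, builds wall and cuticle, and then becomes a source of sugar whose chloroplasts carry most of the protein. Cell division needs cyclins, replication proteins and histones, and expansion needs expansins, wall polymers and water uptake through aquaporins. Mature leaves are known for Calvin cycle enzymes, photorespiration and starch turnover, and shade leaves for a large share of light-harvesting antenna. In a whole leaf, fewer cells of a type and less RNA per cell cannot be told apart.

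The 6 low light libraries had summed FPKM of 841122 to 891966, and the steps between low values put their depths at 0.892 to 1.02 times that of young replicate 1. The number of mapped fragments was not given in the sources used here. Transcripts of leaf cells were abundant in every library: a chlorophyll a/b binding protein (CL542.Contig5) stood at 8737, 8985 and 6449.7 FPKM in young and 8243, 10549 and 6884 FPKM in mature leaves. Mature replicate 2 stood apart from its group. Across the tested unigenes its Pearson r with the mean of the young libraries was 0.697, against 0.535 and 0.515 for mature replicates 1 and 3. It had 35667 unigenes with an FPKM of at least 1, where those 2 libraries had 42637 and 42109. Young replicate 2 had the fewest, 31663, and the largest summed share of organelle-encoded and ribosomal RNA, 0.0813%, 0.789% and 0.0835% in young and 0.117%, 0.504% and 0.122% in mature leaves. In all, 8 of 85 tested members of that list (9.41%) were called higher in young and 7 (8.24%) in mature leaves. Over all tested unigenes these shares were 21.4% and 23.7%. Without young replicate 2 the list's counts were 4 and 14. The organelle list's count toward young leaves was 4 without mature replicate 1 and 2 without mature replicate 3. Its count toward mature leaves was 4 without mature replicate 3 or young replicate 3. Of 2 tested unigenes with names of other organisms, 1 was called higher in young leaves and, without mature replicate 2, the other in mature leaves. Mature replicate 2 and young replicate 2 were kept. A list count that moved by over 1.5 times when 1 low light library was left out is given beside the list.

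**Figure D1:**
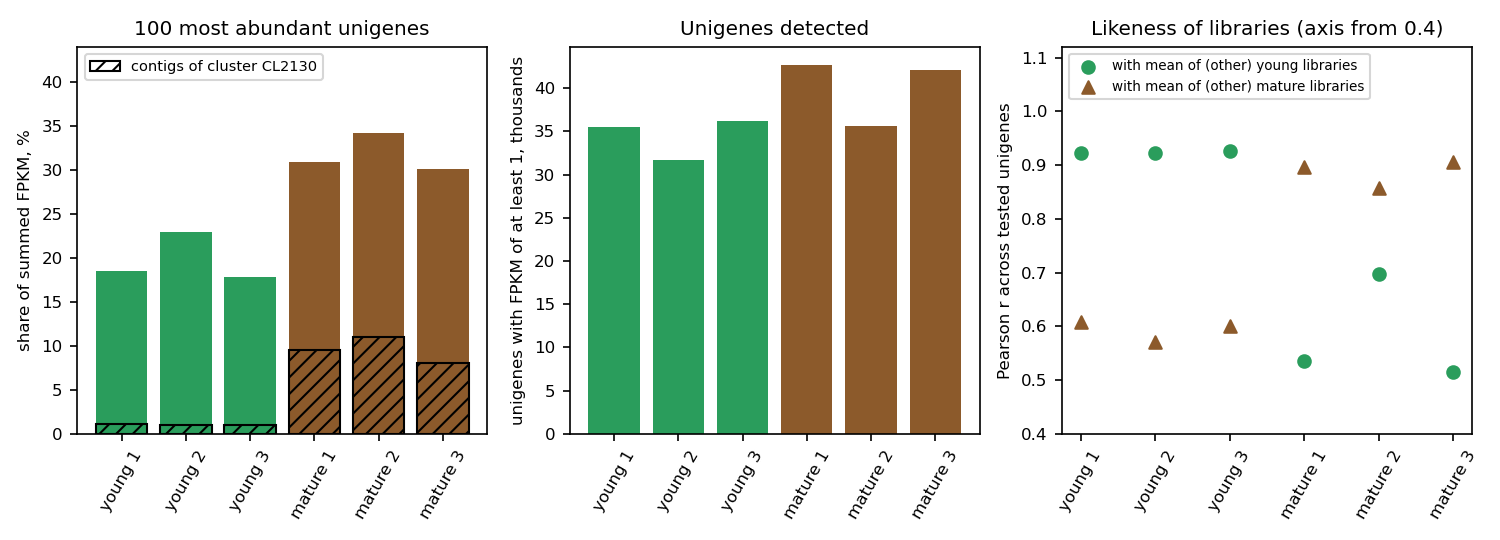
Left, share of summed FPKM (%) held by the 100 most abundant unigenes in each low light library, with the part from cluster CL2130 hatched; middle, number of unigenes (in units of 1000) with an FPKM of at least 1; right, Pearson r of each library's log2(FPKM + 1) with the mean of the young (circles) and mature (triangles) libraries, itself left out. The mature libraries had the larger shares in the left panel, and mature replicate 2 lay nearest to the young libraries in the right panel (0.697).

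A large part of the transcriptome differed between leaf ages in low light. Of the 41118 unigenes, 18518 (45.0%) passed an adjusted p of 0.05 in limma, 8792 (21.4%) higher in young leaves and 9726 (23.7%) higher in mature leaves. Every count for a gene group below is to be read against these 2 shares. Log2 fold changes are young over mature on the log2(FPKM + 1) scale, so positive values are higher in young leaves. Large differences were more often toward young leaves: 3436 unigenes were called with a log2 fold change of at least 2 toward young and 2724 with one toward mature leaves, and at a log2 fold change of 5 these were 276 and 75. On this scale a low level limits the fold change. The median of the mean FPKM in the higher age was 14.7 for calls toward young and 6.79 for calls toward mature leaves. The part of level in these counts was not tested. Over all tested unigenes the median log2 fold change was -0.17, and median-ratio rescaling brought it to -0.01. Without mature replicate 2, 19440 unigenes were called, and without mature replicate 3, 14443. The low value filter itself fixed part of this: 2425 unigenes reached an FPKM of 1 in all 3 young and none of the mature libraries, and 3754 in all 3 mature and none of the young, so these had to differ. In 527 unigenes all 3 mature libraries, and in 406 all 3 young libraries, were listed at 0, and a fold change fitted against such a group is no bound.

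**Figure D2:**
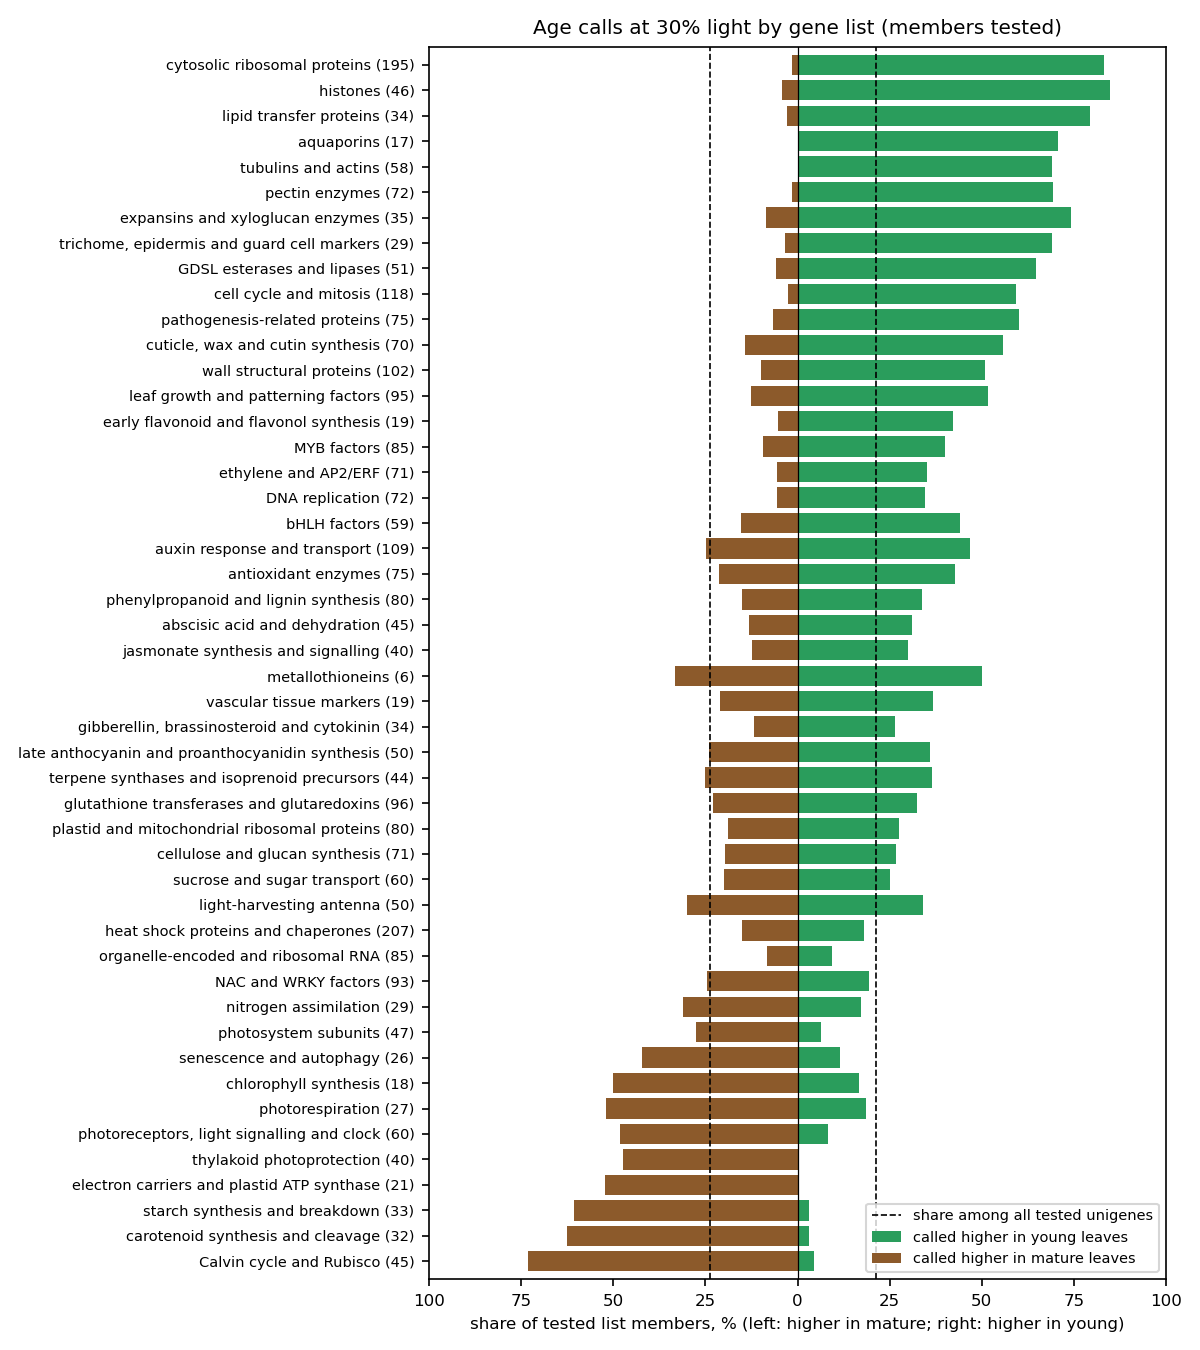
Share of tested members (%) called higher in young leaves (right, green) and in mature leaves (left, brown) for each gene list with at least 5 tested members, the number tested in parentheses. Dashed lines mark the shares over all tested unigenes, 21.4% and 23.7%; ribosomal proteins and histones stand at the top, and carotenoid and Calvin cycle enzymes at the bottom.

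The 12 largest differences toward young leaves were led by a proline-rich wall protein and included an expansin, GDSL enzymes and vinorine synthase-like unigenes. A repetitive proline-rich cell wall protein (Unigene19973) stood at 1436, 1454 and 1660.2 FPKM in young and 0, 0 and 0 FPKM in mature leaves. It was thus listed at 0 in every mature library (adjusted p = 2.04e-11). An expansin-A15-like unigene (CL3876.Contig1), of the family that loosens walls during growth, stood at 998, 598 and 609 FPKM in young and 0, 0 and 0 FPKM in mature leaves. A gibberellin induced protein (Unigene41800) stood at 886, 491 and 532 FPKM in young and 0, 0 and 0 FPKM in mature leaves. Both were listed at 0 in the 3 mature libraries (adjusted p = 3.01e-08 and 6.4e-10). Among GDSL enzymes, which act on lipid esters, Unigene28340 (GDSL esterase/lipase At5g33370) had 1836, 507 and 1139 FPKM in young and 0.05, 0.11 and 0.11 FPKM in mature leaves. Unigene13933 (At1g29670-like) had 576, 1474 and 761 FPKM in young and 0, 0.26 and 0.06 FPKM in mature leaves. The groups lay far apart in both (log2 fold changes 9.87 and 9.62, SE 0.42 and 0.45). Proline-rich protein 4-like (Unigene6825) stood at 2688, 241 and 1841 FPKM in young and 0, 5.16 and 0 FPKM in mature leaves. An auxin-binding protein ABP19a-like unigene (Unigene41775) stood at 2994, 2969 and 1835 FPKM in young and 3.06, 13.2 and 1.07 FPKM in mature leaves. In the former, young replicate 2 was far below the other 2 young libraries. A BURP domain protein (Unigene25031) had 3816, 846 and 1063 FPKM in young and 1.8, 0.73 and 5.98 FPKM in mature leaves. A PR-1-like pathogenesis-related protein (Unigene35994) had 1090.1, 355 and 519.9 FPKM in young and 0.32, 0.59 and 0.32 FPKM in mature leaves. A CASP-like membrane protein (Unigene32277) had 562, 398 and 432 FPKM in young and 0, 0.35 and 0 FPKM in mature leaves. None of these groups overlapped, although the young libraries of the first were spread widely. Log2 fold changes were 8.87, 8.71 and 8.70, with adjusted p-values of 1.98e-06, 9.14e-08 and 7.94e-10. Vinorine synthase-like unigenes are of a family of acyltransferases: CL433.Contig2 stood at 579, 1519 and 2846 FPKM in young and 0.09, 3.18 and 0.12 FPKM in mature leaves. CL3775.Contig2 stood at 378, 997 and 1378 FPKM in young and 0.54, 3.51 and 0.21 FPKM in mature leaves. Mature replicate 2 was the highest mature library in both. With the contigs of each cluster summed, their log2 fold changes, 9.62 and 8.63, were 5.11 and 5.30.

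In the same ranking, the 12 largest differences toward mature leaves were in unigenes of varied function, led by a galactinol synthase and a metallothionein. A unigene without a database hit (CL2534.Contig3, given below) was outside the ranking and had a larger log2 fold change toward mature leaves. Galactinol synthase (CL4158.Contig3), the enzyme that starts raffinose synthesis, stood at 0.31, 0.15 and 0.31 FPKM in young and 823, 374 and 646 FPKM in mature leaves. No young library reached an FPKM of 1 (log2 fold change -8.86, SE 0.54, adjusted p = 4.71e-07). A metallothionein-like protein 3 (Unigene4583), a small metal-binding protein, had 75.1, 40.3 and 34.6 FPKM in young and 10762, 8406 and 17621 FPKM in mature leaves. Its mean over the mature libraries was second to that of a proline-rich wall protein described below, through mature replicate 3 (log2 fold change -7.92, SE 0.67, adjusted p = 4.63e-06). A TRANSPARENT TESTA 12-like transporter (Unigene2617), of a family that in Arabidopsis moves flavonoids into the vacuole, had 0, 0 and 0.39 FPKM in young and 139, 199.8 and 194 FPKM in mature leaves. The groups did not overlap (log2 fold change -7.31, SE 0.36, adjusted p = 9.14e-08). There were 2 terpene synthases among the 12: a myrcene synthase (CL3253.Contig2) stood at 12.5, 4.52 and 11.8 FPKM in young and 1535, 1252 and 1509.8 FPKM in mature leaves. A unigene matching santalene synthase (Unigene5340) stood at 10.6, 2.82 and 8.93 FPKM in young and 1059, 784 and 786 FPKM in mature leaves. Log2 fold changes were -7.18 and -6.83, SE 0.36 and 0.39, and the first was -4.59 with its cluster summed. A glutaredoxin-C1-like unigene (Unigene19381), a small thiol redox protein, had 1.62, 0.24 and 0.24 FPKM in young and 262, 162 and 312 FPKM in mature leaves. The small MYB-related factor RADIALIS-like 2 (Unigene8154) had 0.11, 0 and 0 FPKM in young and 148, 118 and 206 FPKM in mature leaves. Both sets of groups were apart, and their log2 fold changes were -7.22 and -7.22 (adjusted p = 9.4e-05 and 5.19e-06). A calcium-binding protein CML17-like (Unigene34910) had 7.48, 2.7 and 7.05 FPKM in young and 1258, 529 and 1066 FPKM in mature leaves. Alcohol dehydrogenase 1 (CL1121.Contig2) had 1.38, 0.47 and 0.67 FPKM in young and 187, 153 and 405 FPKM in mature leaves. A copper amine oxidase (CL5067.Contig2), which oxidises amines, had 1.71, 1.16 and 2.1 FPKM in young and 231, 196 and 395 FPKM in mature leaves. All mature libraries exceeded all young ones in the 3 unigenes. Adjusted p-values were 4.16e-05, 4.91e-06 and 9.29e-08, and the log2 fold change of the alcohol dehydrogenase, -6.98, was -4.03 with its cluster summed. IBH1-like (CL2210.Contig1), in Arabidopsis a repressor of cell elongation, stood at 1.23, 0.2 and 0 FPKM in young and 114, 119 and 129 FPKM in mature leaves (log2 fold change -6.45, SE 0.57, adjusted p = 6.26e-06). The last of the 12 was phosphoribulokinase, given with the Calvin cycle.

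**Figure D3:**
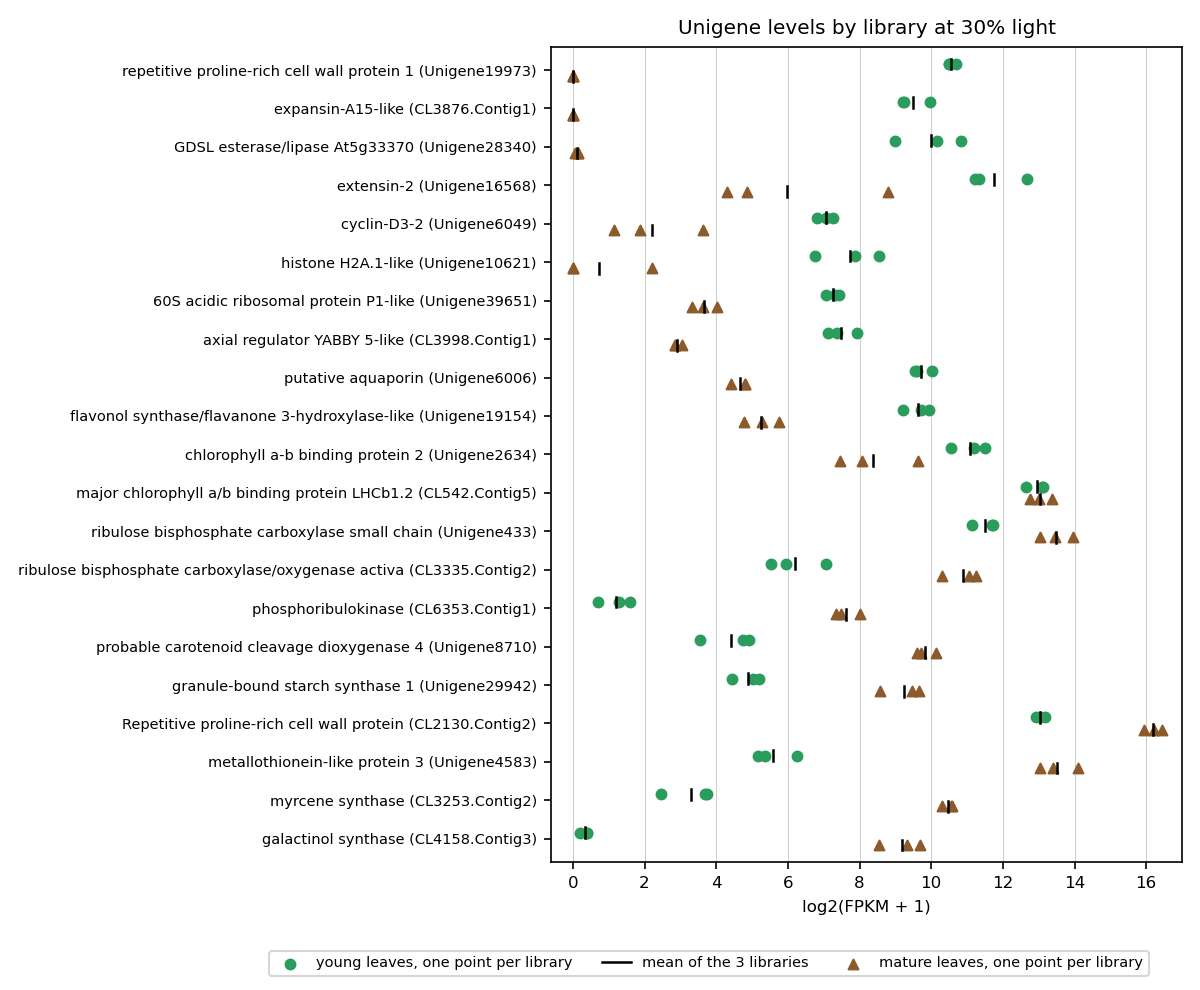
Level of 21 unigenes in each low light library as log2(FPKM + 1), young leaves as green circles, mature leaves as brown triangles, and the mean of 3 libraries as a black bar. The upper unigenes were higher in young leaves, the major chlorophyll a/b binding protein (CL542.Contig5) overlapped between ages, and the lower unigenes were higher in mature leaves; mature replicate 2 is the rightmost triangle of extensin-2 (439.6 FPKM).

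Genes of cell division and chromatin were higher in young leaves. Of 118 tested cell cycle and mitosis members, 70 were higher in young and 3 in mature leaves, and their median log2 fold change was 1.44 against -0.17 over all. Without mature replicate 2 the counts were 72 and 5. Cyclin-D3-2 (Unigene6049), which drives entry into the cycle, stood at 112, 133 and 153 FPKM in young and 2.67, 11.5 and 1.21 FPKM in mature leaves. The kinase Aurora-1 (CL6797.Contig1) stood at 19.5, 21.5 and 32.1 FPKM in young and 0, 1.17 and 0.07 FPKM in mature leaves. In both, mature replicate 2 was the highest mature library yet far below every young one (log2 fold changes 4.83 and 4.23, adjusted p = 3.93e-05 and 4.81e-06). Exceptions to the direction were a kinesin motor domain protein (CL1864.Contig1, 0.23, 0 and 0 FPKM in young and 14.5, 3.05 and 25.8 FPKM in mature leaves) and a cell division cycle 20.2-like unigene (Unigene6997, 1.33, 0.24 and 0.57 FPKM in young and 25.1, 2.94 and 24.2 FPKM in mature leaves), called higher in mature leaves (adjusted p = 0.00108 and 0.0172). The latter did not pass without mature replicate 1 (adjusted p = 0.0683), mature replicate 3 (0.0685) or young replicate 2 (0.0582). Of 72 DNA replication members, 25 were higher in young and 4 in mature leaves, and 23 and 7 without mature replicate 2; toward mature leaves there were 2 without mature replicate 1 or 3 or young replicate 2. Proliferating cell nuclear antigen (CL5516.Contig1), the sliding clamp of DNA polymerase, had 30.1, 51 and 47.3 FPKM in young and 3.97, 6.37 and 4.78 FPKM in mature leaves (log2 fold change 2.84, SE 0.33, adjusted p = 4.4e-05). Among the members higher in mature leaves, DNA ligase 1-like (CL5477.Contig1), which also serves repair, stood at 23.8, 15.8 and 28.1 FPKM in young and 38.2, 42.3 and 57.3 FPKM in mature leaves (log2 fold change -1.01, SE 0.31, adjusted p = 0.0202). It did not pass without mature replicate 3 (adjusted p = 0.0821) or young replicate 2 (0.0804), after median-ratio rescaling (0.0677) or with its cluster summed (0.248).

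Histones had the highest share of members called toward young leaves of any list, 39 of 46 (84.8%), with a median of 2.01. A histone H2A.1-like unigene (Unigene10621) stood at 108, 373 and 234 FPKM in young and 0, 3.58 and 0 FPKM in mature leaves, and an H3.2-like unigene (Unigene5291) at 225, 631 and 336 FPKM in young and 1.18, 18.3 and 0.41 FPKM in mature leaves. Both groups were apart, with mature replicate 2 again the highest of its group (log2 fold change 7.0, SE 0.56, adjusted p = 3.08e-06; log2 fold change 6.54, SE 0.76, adjusted p = 4.47e-05). The 2 histones called the other way were both of the linker type H1: Unigene13462 had 367, 229.9 and 251 FPKM in young and 3088, 1541 and 1602 FPKM in mature leaves. Unigene18650 had 947, 726 and 1309 FPKM in young and 2212, 1478 and 2542 FPKM in mature leaves. Their log2 fold changes were -2.83 and -1.07 (adjusted p = 0.00189 and 0.0293). The call of Unigene18650 was lost without mature replicate 1 (adjusted p = 0.0813) or 3 (0.105), without young replicate 1 (0.0676) or 2 (0.12), and after median-ratio (0.106) or quantile (0.0802) rescaling. Cytosolic ribosomal proteins were called toward young leaves in 162 of 195 members and toward mature in 3, or 1 without young replicate 2. They held 3.12%, 4.04% and 3.11% in young and 1.03%, 0.969% and 0.869% in mature leaves, as shares of summed FPKM. The acidic protein P1-like (Unigene39651) stood at 159.7, 171 and 132 FPKM in young and 15.4, 9 and 11.3 FPKM in mature leaves (log2 fold change 3.61, SE 0.27, adjusted p = 2.02e-06). Near-identical copies are common in this family and can share reads. Of 58 tubulins, actins and related proteins, 40 were higher in young and 0 in mature leaves, the latter 2 after quantile normalization. An alpha tubulin (CL2294.Contig6) stood at 95, 170.2 and 179 FPKM in young and 0.18, 5.85 and 1.14 FPKM in mature leaves. A beta-2 tubulin (CL871.Contig2) stood at 97.2, 171 and 191 FPKM in young and 4.99, 21.3 and 2.77 FPKM in mature leaves. Mature replicate 2 was the highest mature library in both, and with their clusters summed the log2 fold changes, 5.79 and 4.22, were 1.32 and 1.30. The list's share of summed FPKM was 0.55% there against 0.247% and 0.24% in mature replicates 1 and 3.

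Wall-loosening enzymes were among the strongest groups toward young leaves. Of 35 expansins and xyloglucan enzymes, 26 were higher in young and 3 in mature leaves (median 2.66). An alpha-expansin 8 (Unigene40721) had 941, 644 and 591 FPKM in young and 1.11, 3.51 and 1.61 FPKM in mature leaves. Expansin B3 (Unigene11349) had 339, 192 and 203 FPKM in young and 0, 0.54 and 0.11 FPKM in mature leaves. Neither came near overlap (log2 fold change 7.93, SE 0.32, adjusted p = 2.2e-08; log2 fold change 7.64, SE 0.27, adjusted p = 7.98e-09). Xyloglucan endotransglucosylases, which cut and rejoin wall xyloglucan, also gave the exceptions: Unigene30001 stood at 156, 64.2 and 92.3 FPKM in young and 647, 638 and 694 FPKM in mature leaves (log2 fold change -2.75, SE 0.39, adjusted p = 0.000188). Of 72 pectin enzymes, 50 were higher in young and 1 in mature leaves, or 2 without mature replicate 1. A pectate lyase (CL6114.Contig1) stood at 150, 71.2 and 104 FPKM in young and 0, 0.68 and 0.17 FPKM in mature leaves. A pectinesterase-like unigene (Unigene31982), which removes methyl groups from pectin, stood at 139, 151 and 119.6 FPKM in young and 0.13, 3.94 and 1.04 FPKM in mature leaves. Adjusted p-values were 1.63e-06 and 1.03e-05. The cellulose and glucan synthesis list was divided, with 19 members of 71 higher in young and 14 in mature leaves, both near the shares over all unigenes. The counts were 14 and 14 without young replicate 3. With clusters summed they were 17 and 7 of 55, where all clusters and unigenes gave 7702 and 9004 of 33674. Endoglucanase 17 (Unigene7807), a glucan-cutting enzyme that the list's words also matched, stood at 217, 219.7 and 226 FPKM in young and 0.59, 2.77 and 0.85 FPKM in mature leaves. Cellulose synthase-like protein D5 (CL4434.Contig1) stood at 14.5, 13.3 and 11.2 FPKM in young and 0.33, 0.27 and 0.25 FPKM in mature leaves. Its log2 fold change was 3.44 (SE 0.34, adjusted p = 1.55e-05). Cellulose synthase-like proteins E went the other way: CL6913.Contig1 (E6) had 2.92, 5.37 and 0.17 FPKM in young and 65.2, 102 and 116 FPKM in mature leaves. Unigene4616 (E1) had 0, 0 and 0 FPKM in young and 16.9, 15.1 and 15.7 FPKM in mature leaves. Unigene7807, CL6913.Contig1 and Unigene4616 were at 6.64, -4.91 and -4.08 on the log2 scale (adjusted p = 8.26e-07, 1.72e-05 and 9.28e-06).

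Structural wall proteins gave opposite answers by number and by amount. Of 102 tested members, 52 were higher in young and 10 in mature leaves, with a median of 1.71, and 55 and 6 after median-ratio rescaling. Their summed FPKM, however, made up 2.97%, 2.37% and 3.49% in young and 9.69%, 11.5% and 8.19% in mature leaves. The sum was carried by cluster CL2130, contigs of a repetitive proline-rich wall protein, which alone held 1.1%, 0.967% and 1.04% of summed FPKM in the young and 9.57%, 11% and 8.08% in the mature libraries. CL2130.Contig2 had the highest mean of any unigene in both ages, at 9227, 7770.2 and 8415 FPKM in young and 76594, 88178 and 63181 FPKM in mature leaves (log2 fold change -3.16, SE 0.68, adjusted p = 0.00294). In young replicate 2, 3 unigenes were above it (CL5667.Contig3, CL5667.Contig2 and CL542.Contig5). Every mature library was above every young one, but the call did not hold after median-ratio rescaling (adjusted p = 0.0657) or quantile normalization, where the log2 fold change was -0.81. Its companion CL2130.Contig3 stood at 589.9, 357 and 459.5 FPKM in young and 5179, 4599 and 5424 FPKM in mature leaves (log2 fold change -3.46, SE 0.42, adjusted p = 6.85e-05); contigs of a cluster are similar sequences that can share reads. Extensin-2 (Unigene16568), another hydroxyproline-rich wall protein, ran the other way at 2606, 2372 and 6562 FPKM in young and 28.1, 439.6 and 18.9 FPKM in mature leaves (log2 fold change 5.76, SE 1.01, adjusted p = 0.000815). A hydroxyproline-rich glycoprotein (Unigene5097) had 1017, 813 and 1574 FPKM in young and 1.22, 5.13 and 0.58 FPKM in mature leaves (log2 fold change 8.62, SE 0.46, adjusted p = 1.46e-07). In extensin-2, mature replicate 2 lay far above the other 2 mature libraries.

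The cuticle and epidermis lists were higher in young leaves. Of 70 cuticle, wax and cutin members, 39 were higher in young and 10 in mature leaves, and 43 and 7 without mature replicate 2. ECERIFERUM 1-like (Unigene14260), of wax alkane formation in Arabidopsis, stood at 345, 202 and 318 FPKM in young and 0.07, 0.72 and 0 FPKM in mature leaves. Glycerol-3-phosphate acyltransferase 6 (CL5732.Contig2), which makes cutin precursors, stood at 287, 92.2 and 209.8 FPKM in young and 0.67, 1.63 and 0.52 FPKM in mature leaves. All young libraries exceeded all mature ones in both (log2 fold change 7.85, SE 0.30, adjusted p = 1.38e-08; log2 fold change 6.56, SE 0.48, adjusted p = 1.86e-06). An exception was 3-ketoacyl-CoA synthase 6 (CL472.Contig4), which elongates wax precursors, at 1.18, 0.56 and 0.47 FPKM in young and 26.4, 161 and 9.95 FPKM in mature leaves (log2 fold change -4.42, SE 0.87, adjusted p = 0.00169). The shares of summed FPKM were 0.526%, 0.286% and 0.488% in young and 0.122%, 0.339% and 0.0992% in mature leaves, and mature replicate 2 lay inside the range of the young libraries. Lipid transfer proteins, which carry lipids through the wall, were called toward young leaves in 27 of 34 members, with the highest median of any list (3.13). Unigene2067 had 67.6, 519.9 and 144 FPKM in young and 0, 2.29 and 0 FPKM in mature leaves, with young replicate 2 the highest (log2 fold change 6.86, SE 0.98, adjusted p = 0.000203). Of 51 GDSL esterases and lipases, 33 were higher in young and 3 in mature leaves. Of 29 markers of trichome, epidermis and guard cell, 20 were higher in young leaves and 1 in mature leaves (2 without mature replicate 2 or young replicate 1), and their share of summed FPKM was 0.128%, 0.101% and 0.131% in young and 0.0544%, 0.075% and 0.0432% in mature leaves. The part of epidermal cells in the surface gene calls was not tested. Protodermal factor 1 (Unigene35224), a marker of the outer cell layer, stood at 16.3, 193 and 97.2 FPKM in young and 0, 0 and 0 FPKM in mature leaves, listed at 0 in all mature libraries (adjusted p = 7.76e-05). Of 19 vascular markers, 7 (36.8%) were higher in young and 4 (21.1%) in mature leaves, and 8 were not called. The count toward mature leaves was 2 without mature replicate 3 or young replicate 2 or 3. The list's median log2 fold change was -0.03, and 0.60 without mature replicate 2. Among the members higher in young leaves, xylem cysteine proteinase 1 (Unigene42718), of forming xylem vessels, stood at 164, 72.1 and 93.9 FPKM in young and 2.35, 0.76 and 0.23 FPKM in mature leaves (log2 fold change 5.76, SE 0.45, adjusted p = 2.57e-06).

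Flavonol synthesis was higher in young leaves, while later flavonoid steps were mixed. Of 19 early flavonoid and flavonol members, 8 were higher in young and 1 in mature leaves (2 without mature replicate 1), and their share of summed FPKM was 0.389%, 0.479% and 0.53% in young and 0.116%, 0.144% and 0.0885% in mature leaves. A flavonol synthase (Unigene32275) stood at 765, 979 and 1076 FPKM in young and 169, 37 and 12.3 FPKM in mature leaves. A flavonol synthase/flavanone 3-hydroxylase-like unigene (Unigene19154) stood at 596, 975 and 847 FPKM in young and 37.8, 52.4 and 26.3 FPKM in mature leaves. Log2 fold changes were 4.40 and 4.36, SE 0.77 and 0.37. The member that ran the other way was a flavanone 3-dioxygenase-like unigene (Unigene2953) at 1.23, 1.87 and 1.98 FPKM in young and 43.4, 26 and 62.8 FPKM in mature leaves (log2 fold change -3.99, SE 0.38, adjusted p = 1.17e-05). In the late anthocyanin and proanthocyanidin synthesis list, 18 of 50 members were higher in young and 12 in mature leaves, with a median of -0.12 that was 0.05 after median-ratio rescaling. Without mature replicate 3 or young replicate 2, 7 members were called toward mature leaves. Leucoanthocyanidin reductase-like (Unigene20328), of proanthocyanidin synthesis, stood at 121, 102 and 143 FPKM in young and 5.43, 12.5 and 10.5 FPKM in mature leaves (log2 fold change 3.61, SE 0.28, adjusted p = 2.33e-06). A flavonoid 3-O-glucosyltransferase (Unigene36603) stood at 54.3, 169.6 and 82.1 FPKM in young and 0, 0 and 0 FPKM in mature leaves (adjusted p = 3.03e-07). The members higher in mature leaves were led by 3 TRANSPARENT TESTA 12-like transporters, among them Unigene2618 at 1.13, 3.71 and 0 FPKM in young and 25, 57.1 and 92.4 FPKM in mature leaves (log2 fold change -4.59, SE 0.65, adjusted p = 0.000175). Phenylpropanoid and lignin synthesis had 27 of 80 members higher in young and 12 in mature leaves, the latter 7 without young replicate 2. A cinnamyl alcohol dehydrogenase 6 (Unigene34411), of monolignol formation, stood at 299, 149.5 and 171 FPKM in young and 2.73, 5.97 and 1.65 FPKM in mature leaves (log2 fold change 5.60, SE 0.38, adjusted p = 1.12e-06). A ferulate 5-hydroxylase (Unigene998) ran the other way at 4.34, 3.4 and 3.88 FPKM in young and 9.67, 103 and 17.4 FPKM in mature leaves, mature replicate 2 being the highest (log2 fold change -2.49, SE 0.75, adjusted p = 0.017). Without that library its log2 fold change was -1.53 (adjusted p = 0.051), and without young replicate 2 its adjusted p was 0.0507.

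Photosynthesis genes did not move as a block. Antenna members were called in both directions, and the enzymes of carbon fixation were higher in mature leaves. Of 50 light-harvesting antenna members, 17 were higher in young and 15 in mature leaves. With contigs of a cluster summed these were 10 and 14 of 35, and at a mean FPKM of at least 5 they were 6 and 14 of 37. Over all unigenes or clusters these settings gave 7702 and 9004 of 33674, and 5849 and 4440 of 19540. In both settings more antenna members were thus called toward mature leaves. The antenna list's share of summed FPKM was 3.7%, 3.83% and 2.46% in young and 2.84%, 4.54% and 2.88% in mature leaves, with overlapping groups. For CL542.Contig5, the most abundant antenna unigene, whose values are given above, the log2 fold change was -0.08 (SE 0.38, adjusted p = 0.879), and the groups overlapped. Single members differed: chlorophyll a-b binding protein 2 (Unigene2634) stood at 2346, 2908 and 1508 FPKM in young and 266, 788 and 175 FPKM in mature leaves (log2 fold change 2.71, SE 0.47, adjusted p = 0.000772). A chlorophyll A/B binding protein (Unigene1126) ran the other way at 931, 706 and 558 FPKM in young and 2071, 3031 and 2495 FPKM in mature leaves (log2 fold change -1.80, SE 0.29, adjusted p = 0.000455). Of 47 photosystem subunits, 3 were higher in young and 13 in mature leaves, and 5 and 13 without mature replicate 2. Oxygen-evolving enhancer protein 3-2 (Unigene16788) stood at 1.89, 1.62 and 0.96 FPKM in young and 15.6, 8.69 and 14.9 FPKM in mature leaves. Its log2 fold change was -2.48 (SE 0.35, adjusted p = 0.000185). The list's words also took in unigenes named psbQ-like protein 2, whose place in a photosystem was not tested. One of them, Unigene9897, stood at 18.1, 11.9 and 16.4 FPKM in young and 83, 48.4 and 65.6 FPKM in mature leaves (log2 fold change -2.0, SE 0.24, adjusted p = 6.04e-05). Another unigene of that name (Unigene1478) was called toward young leaves. It stood at 12.3, 9.84 and 13.7 FPKM in young and 0.64, 1.02 and 1.48 FPKM in mature leaves (log2 fold change 2.67, SE 0.34, adjusted p = 8.83e-05). Among electron carriers and plastid ATP synthase, 0 of 21 members were higher in young and 11 in mature leaves, the former 1 without young replicate 3. Ferredoxin-NADP reductase (CL6765.Contig2), which makes NADPH, stood at 133, 54.5 and 86.2 FPKM in young and 921, 809.8 and 798 FPKM in mature leaves (log2 fold change -3.28, SE 0.30, adjusted p = 8.33e-06).

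The Calvin cycle was the list with the largest share called toward mature leaves, 33 of 45 members (73.3%), against 2 toward young leaves. Its share of summed FPKM was 1.29%, 1.02% and 1.03% in young and 4.37%, 5.02% and 3.43% in mature leaves. Rubisco activase (CL3335.Contig2), which keeps Rubisco active, stood at 134, 45.5 and 61.3 FPKM in young and 2459, 2135 and 1272 FPKM in mature leaves. Phosphoribulokinase (CL6353.Contig1), which makes the acceptor of CO2, stood at 2, 0.63 and 1.46 FPKM in young and 256, 162 and 179 FPKM in mature leaves. Young libraries were all below mature ones by a wide margin (log2 fold change -4.69, SE 0.39, adjusted p = 3.99e-06; log2 fold change -6.42, SE 0.54, adjusted p = 4.66e-06). With its cluster summed, phosphoribulokinase had a log2 fold change of -2.60. Of the Rubisco small chains, Unigene433 stood at 3398, 3294 and 2235 FPKM in young and 11215, 15818 and 8441 FPKM in mature leaves (log2 fold change -1.97, SE 0.39, adjusted p = 0.00181). Unigene4576 stood at 4777, 3126 and 4060 FPKM in young and 7257, 11929 and 5653 FPKM in mature leaves and did not pass (log2 fold change -1.0, SE 0.41, adjusted p = 0.0626). Its groups did not overlap. It passed in limma with the filter over 12 libraries (adjusted p = 0.0464), without the variance trend (0.0316) and at a mean FPKM of at least 5 (0.0315). One minor small chain unigene (Unigene7495) went the other way at 8.43, 9.64 and 10.9 FPKM in young and 0.19, 0.82 and 0.48 FPKM in mature leaves (log2 fold change 2.85, SE 0.35, adjusted p = 6.38e-05). Of 27 photorespiration members, 14 were higher in mature and 5 in young leaves, the latter 3 without mature replicate 3 or young replicate 1 or 3. A glycine dehydrogenase (CL1507.Contig3), of mitochondrial glycine decarboxylation, stood at 57.1, 21.2 and 51.5 FPKM in young and 777, 493 and 568 FPKM in mature leaves. Serine-glyoxylate aminotransferase (Unigene28128) stood at 76, 21.7 and 35.6 FPKM in young and 636, 556 and 441 FPKM in mature leaves. Their log2 fold changes were -3.89 and -3.75 (adjusted p = 6.24e-06 and 2.22e-05). Contigs of peroxisomal glycolate oxidase called toward young leaves (CL2691.Contig5, 3.07, and CL2691.Contig4, 2.47) belong to a cluster whose sum ran the other way, at 106, 115 and 111 FPKM in the young and 421, 476 and 540.2 FPKM in the mature libraries.

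Pigment and thylakoid repair genes were also higher in mature leaves. Chlorophyll synthesis had 9 of 18 members higher in mature and 3 in young leaves, the latter 1 without young replicate 1 or after quantile normalization. Chlorophyll synthase (CL1513.Contig1), of the last step, stood at 48.1, 33.3 and 42.7 FPKM in young and 156, 113 and 138 FPKM in mature leaves (log2 fold change -1.70, SE 0.27, adjusted p = 0.000366). Porphobilinogen deaminase (Unigene14203), of an early step, was higher in young leaves at 112, 80.3 and 91.9 FPKM in young and 47.9, 59.2 and 49.4 FPKM in mature leaves (log2 fold change 0.84, SE 0.21, adjusted p = 0.0072), a call lost after quantile normalization (adjusted p = 0.0908). Carotenoid synthesis and cleavage had 20 of 32 members higher in mature and 1 in young leaves. Carotenoid cleavage dioxygenase 4 (Unigene8710) stood at 25.9, 10.8 and 29.3 FPKM in young and 839, 777 and 1114 FPKM in mature leaves. Zeaxanthin epoxidase (Unigene5649), of the xanthophyll cycle, stood at 38.6, 12.3 and 32.2 FPKM in young and 437, 229 and 184 FPKM in mature leaves. No young library came near a mature one (log2 fold change -5.40, SE 0.40, adjusted p = 1.91e-06; log2 fold change -3.35, SE 0.47, adjusted p = 0.000171). The only carotenoid member called toward young leaves, where young replicate 2 left out gave 2, was a beta-carotene hydroxylase (Unigene9447) at 8.72, 5.76 and 8.83 FPKM in young and 0, 0.08 and 0 FPKM in mature leaves. For thylakoid photoprotection, 19 of 40 members were higher in mature and 0 in young leaves, the latter 1 without young replicate 2. The FTSH proteases, which remove damaged photosystem II protein, led it: FTSH 2 (CL718.Contig2) stood at 69.3, 40.3 and 55.8 FPKM in young and 422, 573 and 681 FPKM in mature leaves. FTSH 8 (Unigene9624) stood at 15.3, 7.84 and 21.7 FPKM in young and 222, 134 and 159.9 FPKM in mature leaves (adjusted p = 5.54e-05 and 1.06e-05). Plastid and mitochondrial ribosomal proteins were divided, 22 of 80 toward young and 15 toward mature leaves, 14 and 11 without mature replicate 1, and 15 and 20 after quantile normalization. The median, 0.09, was -0.01 without mature replicate 3 or young replicate 1. A plastid S9-like contig called toward young leaves, CL6151.Contig1, had 21.7, 10.6 and 24.4 FPKM in young and 3.77, 3.22 and 0 FPKM in mature leaves, while its cluster summed ran the other way at 79.7, 60.9 and 59.3 against 141, 148 and 124 FPKM. The plastid protein L12 (Unigene31094) stood at 80.7, 46.5 and 48.9 FPKM in young and 227, 208 and 212 FPKM in mature leaves (log2 fold change -1.90, SE 0.24, adjusted p = 7.11e-05).

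Starch genes were higher in mature leaves, and sugar genes were mixed. Of 33 starch members, 20 were higher in mature and 1 in young leaves, the latter 0 without mature replicate 3 and 2 without young replicate 2. Granule-bound starch synthase 1 (Unigene29942), which makes amylose, stood at 35.3, 20.7 and 31.8 FPKM in young and 805, 381 and 700.4 FPKM in mature leaves (log2 fold change -4.34, SE 0.45, adjusted p = 2.01e-05). A beta-amylase family unigene (Unigene9860) had 8.24, 2.69 and 7.55 FPKM in young and 168, 67.7 and 122 FPKM in mature leaves (log2 fold change -4.09, SE 0.51, adjusted p = 7.77e-05), whereas beta-amylase 1 (Unigene16335) was higher in young leaves at 50.2, 49 and 38.1 FPKM in young and 22, 15.3 and 3.1 FPKM in mature leaves (log2 fold change 2.01, SE 0.60, adjusted p = 0.0162). Without mature replicate 3 the latter had a log2 fold change of 1.26 and did not pass (adjusted p = 0.0622). In the sucrose and sugar transport list, 15 of 60 members were higher in young and 12 in mature leaves, and 13 and 14 without mature replicate 2. Sucrose synthase 2-like (CL5990.Contig1) stood at 0.5, 0.18 and 0.23 FPKM in young and 33.8, 34.6 and 37 FPKM in mature leaves. Cytosolic invertase 2 (CL1604.Contig1), which splits sucrose, stood at 11.7, 11.2 and 14.8 FPKM in young and 0.41, 1.03 and 0.44 FPKM in mature leaves. They ran in opposite directions (log2 fold change -4.80, SE 0.29, adjusted p = 4.48e-07; log2 fold change 3.07, SE 0.29, adjusted p = 1.11e-05). For nitrogen, 9 of 29 members were higher in mature and 5 in young leaves, and 6 and 6 without young replicate 2. Ferredoxin-dependent glutamate synthase 1 (Unigene213), of plastid ammonium assimilation, stood at 7.43, 3.43 and 6.79 FPKM in young and 145, 65.9 and 86.8 FPKM in mature leaves (log2 fold change -3.84, SE 0.35, adjusted p = 8.15e-06). Glutamine synthetases were split between a nodule isozyme-like unigene (Unigene28347) at 299, 269 and 275 FPKM in young and 75.1, 132 and 80.2 FPKM in mature leaves and another (CL2191.Contig1) at 144, 58.1 and 95.9 FPKM in young and 628, 373 and 393 FPKM in mature leaves. The first was higher in young and the second in mature leaves (log2 fold change 1.59, SE 0.24, adjusted p = 0.000302; log2 fold change -2.27, SE 0.33, adjusted p = 0.000218).

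Among hormone lists, auxin genes were called in both directions. Of 109 auxin members, 51 were higher in young and 27 in mature leaves, against 21.4% and 23.7% over all that is 46.8% and 24.8%. Auxin-induced protein 15A (Unigene38279), of the small growth-linked family, stood at 173, 282 and 172 FPKM in young and 0, 0.16 and 0 FPKM in mature leaves (log2 fold change 7.60, SE 0.28, adjusted p = 1.14e-08). An auxin-repressed protein (CL3443.Contig2) was higher in mature leaves at 7.39, 1.68 and 1.29 FPKM in young and 57, 48 and 71.7 FPKM in mature leaves (log2 fold change -3.99, SE 0.70, adjusted p = 0.000772), with a log2 fold change of -1.89 when its cluster was summed. Of 34 gibberellin, brassinosteroid and cytokinin members, 9 were higher in young and 4 in mature leaves. DELLA protein GAI-like (Unigene44197), a repressor in gibberellin signalling, stood at 54.9, 36.4 and 48.8 FPKM in young and 0.57, 3.36 and 0.65 FPKM in mature leaves (log2 fold change 4.39, SE 0.41, adjusted p = 1e-05). Abscisic acid and dehydration genes had 14 of 45 members higher in young and 6 in mature leaves. A desiccation-related PCC13-62-like protein (Unigene29952) stood at 385, 353 and 395 FPKM in young and 2.9, 3.62 and 0.28 FPKM in mature leaves (log2 fold change 7.05, SE 0.42, adjusted p = 3.71e-07), and the abscisic acid receptor PYL4 (Unigene18684) at 0.42, 0 and 0.42 FPKM in young and 4.42, 4.5 and 11.7 FPKM in mature leaves (log2 fold change -2.52, SE 0.49, adjusted p = 0.00152). Jasmonate genes had 12 of 40 toward young and 5 toward mature leaves. Jasmonic acid carboxyl methyltransferase (Unigene23152) stood at 116, 101 and 207 FPKM in young and 0.17, 5.8 and 0.12 FPKM in mature leaves. A 13S-lipoxygenase (CL360.Contig2), of the first step of jasmonate synthesis, stood at 0.41, 0 and 0.96 FPKM in young and 13.9, 8.96 and 11.9 FPKM in mature leaves. These were 6.03 and -3.14 on the log2 scale (adjusted p = 1.11e-05 and 4.35e-05). Ethylene genes and AP2/ERF factors had 25 of 71 toward young and 4 toward mature leaves, led by an AP2 domain factor (Unigene27887) at 320.4, 141 and 252 FPKM in young and 0, 0.36 and 0 FPKM in mature leaves (log2 fold change 7.67, SE 0.44, adjusted p = 2.88e-07).

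Transcription factors of leaf growth and patterning were higher in young leaves in 49 of 95 members and in mature leaves in 12, a number that was 4 to 7 without mature replicate 1 or 3 or young replicate 2 or 3. YABBY 5-like (CL3998.Contig1), of a family that marks the lower leaf side, stood at 244, 166 and 139 FPKM in young and 6.21, 6.19 and 7.2 FPKM in mature leaves (log2 fold change 4.57, SE 0.31, adjusted p = 9.54e-07). A squamosa promoter binding protein-like 8 (CL2511.Contig3) had 20.1, 20.9 and 27.9 FPKM in young and 0, 0.42 and 0 FPKM in mature leaves (log2 fold change 4.40, SE 0.31, adjusted p = 1.2e-06). Of 85 MYB factors, 34 were higher in young and 8 in mature leaves, and of 59 bHLH factors, 26 and 9, the latter 5 without mature replicate 1 or young replicate 1 and 4 without young replicate 2. MYB12-like (Unigene5144), in Arabidopsis an activator of flavonol synthesis, stood at 28.5, 16 and 41 FPKM in young and 3.58, 0.68 and 0 FPKM in mature leaves (log2 fold change 3.80, SE 0.56, adjusted p = 0.000241). MYB6-like repressors were found on both sides: Unigene8645 had 18.4, 22.1 and 25.7 FPKM in young and 0.06, 1.61 and 0.06 FPKM in mature leaves. Unigene33077 had 1.59, 2.35 and 1.2 FPKM in young and 13.3, 16 and 14.1 FPKM in mature leaves. Their log2 fold changes were 4.0 and -2.53 (adjusted p = 3.24e-05 and 5.1e-05). A bHLH61-like factor (CL7554.Contig2) was listed at 0 in all mature libraries and had 155, 76.9 and 111 FPKM in the young ones. NAC and WRKY factors were near the background in both directions, 18 of 93 toward young and 23 toward mature leaves. At a mean FPKM of at least 5, 5 of 51 were called toward young and 18 toward mature leaves (median -0.62). Over all unigenes that setting gave 5849 and 4440 of 19540, so the nearness to background depended on the filter. NAC domain-containing protein 29 (Unigene30276) stood at 191, 93.7 and 98.1 FPKM in young and 0, 0.7 and 0 FPKM in mature leaves. A WRKY 47-like factor (CL7222.Contig2) stood at 0.32, 0.36 and 0.16 FPKM in young and 36.3, 29.6 and 21.3 FPKM in mature leaves. They ran in opposite directions (log2 fold change 6.67, SE 0.41, adjusted p = 4.64e-07; log2 fold change -4.53, SE 0.31, adjusted p = 1.14e-06).

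Light signalling and clock genes were called toward mature leaves in 29 of 60 members and toward young leaves in 5, the latter 3 without young replicate 3 and 11 after median-ratio rescaling. Gigantea (CL7465.Contig1), a clock protein, stood at 17.5, 6.85 and 24.3 FPKM in young and 172, 83.9 and 144 FPKM in mature leaves (log2 fold change -3.06, SE 0.41, adjusted p = 0.000126). CONSTANS-LIKE 10-like unigenes split, with CL2717.Contig1 at 11.5, 6.1 and 10.2 FPKM in young and 101, 75.7 and 91 FPKM in mature leaves and Unigene2517 at 6.13, 7.51 and 9.1 FPKM in young and 3.06, 2.85 and 4.23 FPKM in mature leaves. The first was higher in mature and the second in young leaves (log2 fold change -3.17, SE 0.29, adjusted p = 8.93e-06; log2 fold change 0.97, SE 0.31, adjusted p = 0.0237). Unigene2517 did not pass without mature replicate 1 (adjusted p = 0.0673) or 2 (0.0551), or without young replicate 2 (0.0521) or 3 (0.0758). The hour of sampling was not given in the sources used here, and its part in these calls was not tested.

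Defence and water channel genes were mostly higher in young leaves. Of 75 pathogenesis-related members, 45 were higher in young and 5 in mature leaves. A defensin-like protein (Unigene44550) stood at 239, 324 and 75.3 FPKM in young and 0.18, 0 and 8.89 FPKM in mature leaves (log2 fold change 6.32, SE 1.08, adjusted p = 0.000662), and thaumatin-like protein 1 (Unigene5840) at 6.54, 4.07 and 5.66 FPKM in young and 35.9, 54.2 and 44.4 FPKM in mature leaves (log2 fold change -2.83, SE 0.51, adjusted p = 0.000945). Of 17 aquaporins, 12 were higher in young and 0 in mature leaves, and as shares of summed FPKM they held 0.635%, 0.679% and 0.501% in young and 0.0595%, 0.119% and 0.0673% in mature leaves. The vacuolar TIP1-1-like (Unigene431) stood at 648, 596 and 539 FPKM in young and 10.8, 30.6 and 8.2 FPKM in mature leaves. A putative aquaporin (Unigene6006) stood at 1042, 773 and 746 FPKM in young and 20.1, 26.7 and 26.9 FPKM in mature leaves (adjusted p = 1.11e-05 and 5.19e-06). Terpene synthases and isoprenoid precursor enzymes were called in both directions, 16 of 44 toward young and 11 toward mature leaves, the latter 4 without mature replicate 1 and 7 without young replicate 2. The unigene matching santalene synthase (Unigene5340) was not taken in by this list's words and is not in these counts. Beside the myrcene synthase above, CL3253.Contig1 of the same cluster stood at 22.3, 16.5 and 25.9 FPKM in young and 1162, 798 and 869 FPKM in mature leaves (log2 fold change -5.39, SE 0.29, adjusted p = 1.4e-07), whereas an alpha-terpineol synthase (Unigene31530) had 63.3, 30.3 and 57.4 FPKM in young and 0.28, 0.34 and 0.08 FPKM in mature leaves (log2 fold change 5.32, SE 0.59, adjusted p = 3.18e-05). Both are monoterpene synthases, and they ran in opposite directions.

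Redox and chaperone lists had members called in both directions, and senescence members were called more often toward mature leaves. Antioxidant enzymes had 32 of 75 members toward young and 16 toward mature leaves, led by class III peroxidases on both sides. Peroxidase 70-like (Unigene2242) stood at 109.8, 131 and 157 FPKM in young and 0, 1.52 and 0.25 FPKM in mature leaves. Peroxidase 4-like (CL1192.Contig3) stood at 6.17, 2.55 and 2.72 FPKM in young and 48.3, 32.9 and 114 FPKM in mature leaves (log2 fold change 6.49, SE 0.31, adjusted p = 7.44e-08; log2 fold change -3.66, SE 0.56, adjusted p = 0.000329). Monodehydroascorbate reductase (CL71.Contig1), which regenerates ascorbate, was higher in mature leaves at 5.5, 2.92 and 8.64 FPKM in young and 60, 58 and 49.5 FPKM in mature leaves (log2 fold change -3.18, SE 0.33, adjusted p = 2.3e-05). Of 96 glutathione transferases and glutaredoxins, 31 were higher in young and 22 in mature leaves. The 3 largest toward young leaves were transferases, such as GST 23-like (Unigene1191) at 96.8, 104 and 139.5 FPKM in young and 5.96, 16 and 5.38 FPKM in mature leaves, and the 3 largest toward mature leaves were glutaredoxin-C1-like, such as Unigene2155 at 0.15, 0.15 and 0.38 FPKM in young and 43.5, 32.1 and 40.1 FPKM in mature leaves. Of 6 metallothioneins, 3 were higher in young and 2 in mature leaves. The latter was 1 without mature replicate 1 or 2 or young replicate 1 or 2, and after median-ratio or quantile rescaling, since a metallothionein-like protein MT2A (Unigene1829) at 1045, 1459 and 1851 FPKM in young and 3343, 2875 and 2133 FPKM in mature leaves (log2 fold change -0.95, SE 0.35, adjusted p = 0.0403) then did not pass. Its adjusted p without those libraries was 0.129, 0.0695, 0.144 and 0.0931. A type 2 metallothionein (Unigene17274) stood at 2068, 1334 and 1618 FPKM in young and 409, 707 and 628 FPKM in mature leaves (log2 fold change 1.54, SE 0.32, adjusted p = 0.00211), opposite to the metallothionein-like protein 3 above. Heat shock proteins and chaperones had 37 of 207 toward young and 31 toward mature leaves, below the background in both directions, and 37 and 37 after quantile normalization. The plastid chaperone ClpC1-like (CL2894.Contig5) stood at 56.4, 31.4 and 55.4 FPKM in young and 367, 282 and 420 FPKM in mature leaves (log2 fold change -2.90, SE 0.31, adjusted p = 2.83e-05). Senescence and autophagy had 11 of 26 members toward mature and 3 toward young leaves. Pheophorbide a oxygenase (CL5853.Contig2), of chlorophyll breakdown, stood at 17.1, 8.43 and 22.6 FPKM in young and 102, 87.8 and 136 FPKM in mature leaves, while STAY-GREEN-like (Unigene647), of the same pathway, stood at 30.6, 10.6 and 16.6 FPKM in young and 2.16, 1.43 and 1.11 FPKM in mature leaves. The first was higher in mature and the second in young leaves (log2 fold change -2.76, SE 0.35, adjusted p = 7.9e-05; log2 fold change 2.88, SE 0.39, adjusted p = 0.000147).

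The transcript pool was more concentrated in its 100 most abundant unigenes in mature leaves. The 100 most abundant unigenes held 18.5%, 23% and 17.8% of summed FPKM in the young and 30.9%, 34.2% and 30.1% in the mature libraries. The groups did not overlap, and the two-sided exact permutation p was 0.1, the smallest that 3 against 3 libraries can give. Leaving out the contigs of CL2130, the shares were 19.1% ± 2.87 in young and 24.8% ± 1.33 in mature leaves (SD, n = 3, exact permutation p = 0.1), an alternative added after the data were seen. The 1000 most abundant unigenes held 47.2%, 53.8% and 45.9% in young and 52.4%, 57.2% and 52.5% in mature leaves. Those groups overlapped (exact permutation p = 0.3). The number of unigenes at 1 FPKM or more was 35536, 31663 and 36148 in young and 42637, 35667 and 42109 in mature leaves. Here the groups overlapped, since mature replicate 2 lay between young replicates 1 and 3 (exact permutation p = 0.2). The 10 most abundant unigenes of young leaves held 3 antenna proteins (CL542.Contig5, CL542.Contig4 and Unigene2635), and Unigene433 and Unigene4576 of Rubisco. Unigene2635 (LHCII type 1 antenna protein) stood at 4121, 5025 and 2361 FPKM in young and 1453, 2579 and 1231 FPKM in mature leaves (log2 fold change 1.14, SE 0.40, adjusted p = 0.0343). Its groups overlapped, and it did not pass without mature replicate 1 (adjusted p = 0.0995) or 3 (0.13), without young replicate 1 (0.0889) or 2 (0.133), or after median-ratio rescaling (0.057). A non-specific lipid-transfer protein (Unigene35810) stood at 3576, 4924 and 3585 FPKM in young and 675, 2932 and 803 FPKM in mature leaves (log2 fold change 1.77, SE 0.64, adjusted p = 0.0404). Mature replicate 2 was again nearest to the young libraries, and the call was lost without mature replicate 1 (adjusted p = 0.149) or 3 (0.133), without young replicate 1 (0.0709), 2 (0.118) or 3 (0.0727), and after median-ratio rescaling (0.0605). Contigs of a hypothetical protein, CL5667.Contig3 at 342, 18146 and 857 FPKM in young and 283, 2655 and 413 FPKM in mature leaves and CL5667.Contig2 at 290.2, 10612 and 347 FPKM in young and 125, 834 and 147 FPKM in mature leaves, were in that group through young replicate 2 alone and did not pass (adjusted p = 0.419 and 0.204). Without young replicate 2 their log2 fold changes of 1.37 and 2.04 were -0.32 and 0.35. In mature leaves the 10 held a thiamine thiazole synthase 1-like unigene (CL841.Contig4), of vitamin B1 synthesis, at 364, 302 and 434 FPKM in young and 4162, 4485 and 4180.4 FPKM in mature leaves (log2 fold change -3.55, SE 0.31, adjusted p = 5.78e-06). They also held unigenes with no described product: Unigene34433 at 1452, 1304 and 905 FPKM in young and 5375, 6501 and 3128 FPKM in mature leaves, Unigene12474 at 109.8, 27 and 5.93 FPKM in young and 4456, 3989 and 3669 FPKM in mature leaves, and CL2534.Contig3, without a database hit, at 6.54, 2.15 and 0.54 FPKM in young and 3681, 762 and 6369 FPKM in mature leaves. All 3 were called (log2 fold changes -2.0, -7.18 and -9.62).

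The age difference was then set against the one in full sunlight, by the difference of the 2 log2 fold changes in the same fit. In full sunlight 13964 of the 41118 unigenes (34.0%) were called for age, 10132 higher in young and 3832 in mature leaves, a split that was 7319 and 6301 after median-ratio rescaling and turned to 7155 and 7433 after quantile normalization. Of the low light calls, 10606 were called in the same direction in full light, which is 57.3% of the low light and 76% of the full light calls, and 26 were called in opposite directions. The test of the difference called 2 unigenes (0.00486%) at an adjusted p of 0.05, while 5172 (12.6%) had an unadjusted p under 0.05. Over all tested unigenes the median difference was -0.42, and 0.01 with median-ratio rescaling. List medians in low and full light were -1.97 and -1.16 for the Calvin cycle and Rubisco, -1.38 and -0.47 for starch, 2.01 and 1.14 for histones, and 0.38 and -0.61 for the antenna. No difference in any member of these 4 lists passed the test.

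**Figure D4:**
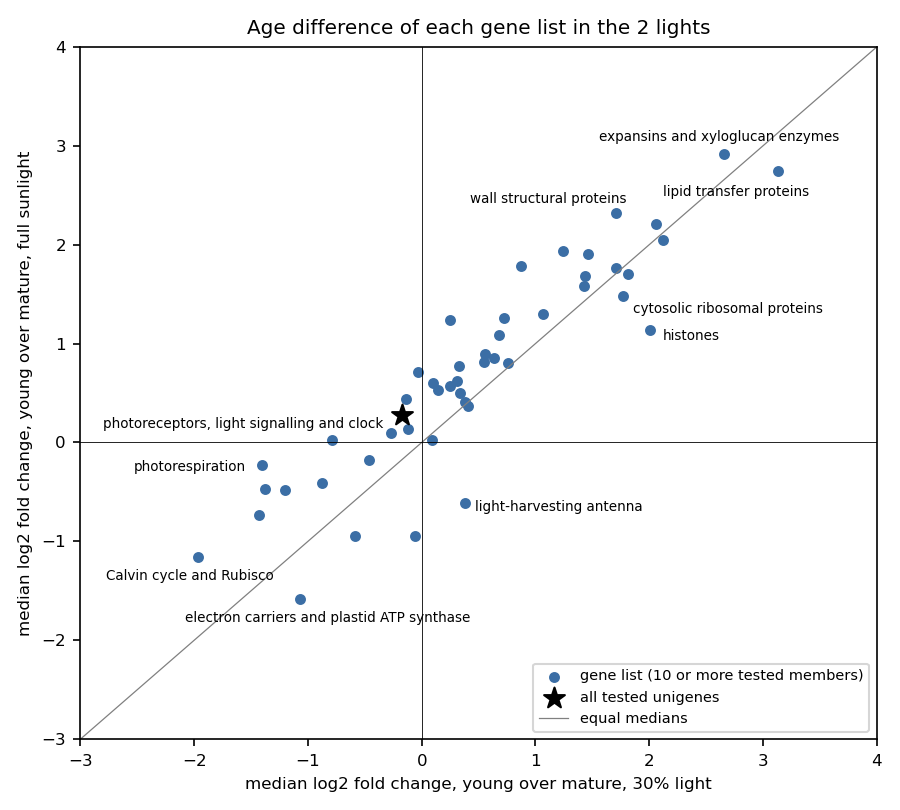
Median log2 fold change (young over mature) of each gene list with at least 10 tested members in 30% light (horizontal) and full sunlight (vertical), with all tested unigenes as a star and equal medians as a line. The star lies at -0.17 and 0.28, and 36 of 47 lists lie above the line; the antenna list lies below it at 0.38 and -0.61.

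Both unigenes called for the difference were contigs of clusters in which a companion contig held FPKM as well; CL3584.Contig1, which the naming rule leaves out, was named after its values were seen. CL1691.Contig2 (ER membrane protein complex subunit 3-like) was listed at 0 in the 3 young low light libraries and all 6 full light libraries and stood at 17.4, 39.5 and 25.9 FPKM in the mature low light libraries (difference -4.76, SE 0.43, adjusted p = 0.00304). Its companion CL1691.Contig1 stood at 100.3, 98 and 96.2 FPKM in the young and 36, 32.5 and 43.8 FPKM in the mature low light libraries. With both contigs summed the age log2 fold change in low light was 0.60 (adjusted p = 0.0264), a call toward young leaves and opposite to that of CL1691.Contig2. CL3584.Contig1, without a database hit, was listed at 0 in the 3 mature low light libraries and stood at 9.97, 8.02 and 10.4 FPKM in the young ones (difference 3.86, SE 0.36, adjusted p = 0.00304). Its companion CL3584.Contig2 stood at 17.7, 18 and 14.7 FPKM in those mature libraries. With contigs summed, no unigene or cluster was called for the difference.

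**Figure D5:**
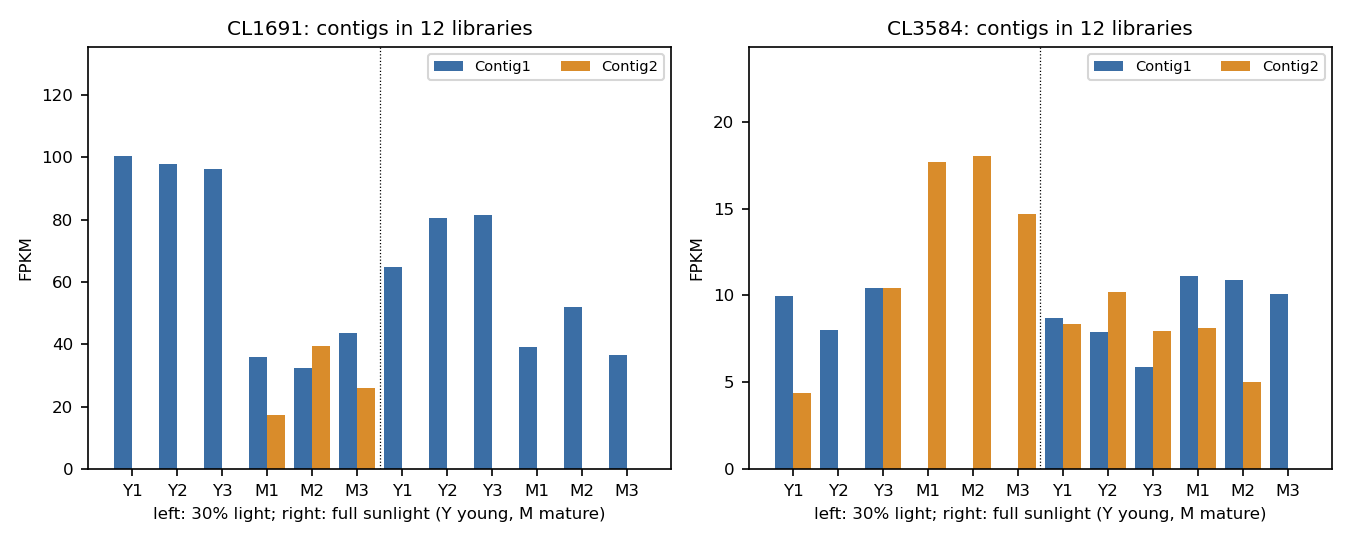
FPKM of the 2 contigs of clusters CL1691 (left) and CL3584 (right) in 12 libraries, low light left of the dotted line and full sunlight right of it, young leaves as Y and mature leaves as M with the replicate number. In mature low light leaves CL1691.Contig2 reached 17.4 to 39.5 FPKM, and CL3584.Contig1 was listed at 0 there.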

How the data were processed

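RNA of young and mature C. concinna leaves was sequenced in 3 libraries per leaf age and light level. The values are FPKM per unigene as deposited by the authors, and RSEM 1.2.12 is named per the submitters' processing notes. How the unigenes were assembled was not given in the sources used here. Unigenes at 1 FPKM or more in 3 or more low light libraries were tested with limma 3.58.1 (R 4.3.3) on log2(FPKM + 1), with a trended variance and all 12 C. concinna libraries in one fit of 4 groups. P-values were adjusted over all 41118 unigenes by Benjamini-Hochberg, and an adjusted p under 0.05 is a call. Values per library were compared by exact permutation tests. Across the tested unigenes, deviations of same-numbered young and mature low light libraries from their group means had correlations of 0.0262, 0.0686 and -0.0328. In full light these were 0.043, -0.121 and 0.278. Replicate numbers were not used as pairs. Both low light libraries numbered 2 did have the larger organelle-encoded and ribosomal RNA shares of their groups (0.789% in young and 0.504% in mature leaves). The script was tested on simulated data in which few unigenes were changed. For age in low light it recovered 69% of added log2 changes of 2 and 95% of those of 3. Recovery of a difference between lights was not simulated, so a lack of calls there does not show equal age effects.

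Genes were grouped into 49 lists by words in the deposited descriptions, which 38.8% of the tested unigenes have in usable form. Members and lists were chosen with earlier results of these data known, and word patterns were corrected after reading descriptions. Named are the 12 largest calls in each direction with a usable description, groups apart and 10 FPKM or more on average where higher; from the 3 largest calls per list and direction with a mean of at least 5, those shown; the 10 most abundant unigenes per age; and calls for the difference between lights. Alternatives changed the pseudocount, filter, scaling, variance model, library weights, unit (contigs summed per cluster), pairing and libraries. Leaving out cluster CL2130 was added after seeing the data. FPKM is relative to each library's own total, so a few very abundant transcripts lower the rest.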

Additional observations from a re-analysis of the deposited data

Results flagged for a closer look

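In 2 unigenes the age difference in low light differed from that in full sunlight by the test of the difference itself. For CL1691.Contig2 (ER membrane protein complex subunit 3-like) the low light log2 fold change minus the full light one was -4.76 (SE 0.43, adjusted p = 0.00304 in limma, n = 3 libraries per group), and it was above 0 FPKM in the 3 mature low light libraries alone. For CL3584.Contig1, without a database hit, the difference was 3.86 (SE 0.36, adjusted p = 0.00304), and it was listed at 0 in the 3 mature low light libraries alone. Both are contigs of clusters whose summed values gave no call for the difference between lights.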

How the results depend on the processing

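Calls for age in low light numbered 14443 to 20426 under the alternatives other than a mean FPKM of at least 5, which left 19540 unigenes and gave 10289 calls, 5849 higher in young leaves. Leaving out 1 library gave 14443 to 19440 calls. With the replicate block there were 18537, and the numbers were not shown to pair libraries. Median-ratio rescaling moved the calls toward young leaves from 47.5% to 52.5%. The 2 calls for the difference between lights became 13 with array weights, 4 with median-ratio rescaling, 4 with a pseudocount of 0.1, 8 with quantile normalization, 1 at a mean FPKM of at least 5, and 0 with clusters summed or with the replicate block; leaving out 1 library gave 2 to 8. With clusters summed the age log2 fold change turned to -1.05 for CL6151.Contig1, -2.10 for CL2691.Contig5, -2.10 for CL2691.Contig4, 0.60 for CL1691.Contig2 and -0.30 for CL3584.Contig1, whose difference between lights turned to -0.44; summing adds the companion contigs. Of 275 named unigenes, 41 lost a call under some alternative. The top 100 share and the number of unigenes kept their direction in all alternatives run, where 2 libraries against 3 cannot pass. Depth in fragments is unknown, so no counting interval is given.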

Other observations

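Unigenes higher in mature leaves were less often annotated. A database hit was given for 84.6% of those higher in young leaves, 58% of those higher in mature leaves and 69% of those not called. Their levels differed too: the median of the mean FPKM in the higher age was 14.7 for calls toward young and 6.79 for calls toward mature leaves. The part of level in the annotation share was not tested.

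At least 10 FPKM on average in one age and 0 in all 3 libraries of the other was found in 127 unigenes of young leaves and 44 of mature leaves. Of 1354 clusters with at least 2 called contigs, 169 (12.5%) had contigs called in both directions. Among calls toward mature leaves, mature replicate 2 was the lowest of the 3 mature libraries in 71.9%, and among calls toward young leaves it was the highest in 51.2%.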
